A study of Gallus gallus with 6 samples.

Results

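Genes of the mitochondrial respiratory chain stood at nearly the same level in chick forelimb bud tissue exposed to fibroblast growth factor 2 (FGF2) for 24 h and in tissue exposed to phosphate-buffered saline (PBS). The genes were chosen by the form of their symbol in the platform annotation: NDUF for subunits and 8 assembly factors of complex I, SDH, UQCR, COX and ATP5 for subunits of complexes II to V, and CYCS. Of the 13051 genes with a single symbol 73 met this rule, which leaves out some subunits with other symbols, such as COX4I1, and other assembly factors. The wing buds were those of chick embryos with no genetic change named in the labels. A heparin acrylic bead soaked in FGF2 or, as the control, in PBS was implanted in the posterior mesoderm at Hamburger–Hamilton stage 23, some 500 µm from the tip, and tissue around it was taken 24 h later at stage 25. Both groups thus carried a bead and the wound of implantation. There were 3 FGF2 arrays and 3 PBS arrays, each of RNA pooled from several embryos in an experiment repeated on separate days. Each SD below is thus a spread between pools. Each SE and interval is from limma, which draws the variance of a probe set toward that of all probe sets.

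The respiratory chain passes electrons from NADH (complex I) and succinate (complex II) through complex III and the mobile carrier cytochrome c to oxygen at complex IV, and the proton gradient built on the way drives ATP synthesis at complex V. Most subunits are coded in the nucleus and imported. A few are coded by mitochondrial DNA, and none of those had a probe set with a single symbol here. Limb bud mesenchyme is a fast-growing embryonic tissue that draws on both glycolysis and respiration, and the comparison asks which transcripts differ in bud tissue that expresses Sonic hedgehog after a day of FGF2.

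All values are on the log2 scale of the array, on which 1 unit is a doubling, and a fold change is FGF2 minus PBS on that scale. The medians of the 6 arrays lay between 4.75 and 4.81, and any pair of arrays correlated at 0.996 or more over the probe sets. The 746 probe sets not named after chicken transcripts had a 95th percentile of 3.57, which served as background. Of the 73 genes 71 lay above it, with mean levels of 6.33 to 15.09. The other two, ATP5G2 (2.45 in FGF2 and 2.49 in PBS tissue) and COX7B (2.31 in FGF2 and 2.34 in PBS tissue), were at background, so their differences say nothing about these transcripts. All 8 limb mesenchyme markers, such as PRRX1 and TBX5, were above background in this tissue.

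Of the respiratory chain genes, 41 were higher and 32 lower around FGF2 beads, with a median log2 fold change of 0.01, against 5937 higher and 7114 lower and a median of -0.01 over all genes. Above the median level of all probe sets the shares were close: 57.7% of the 71 members there were higher, and 58.1% of all genes there. This cut does not match the levels: the members had a median level of 12.36, against 8.40 over all genes. None of the 73 passed an adjusted p of 0.05 (limma; adjusted p = 0.536 to 0.992). An unadjusted p under 0.05 was reached by 1 gene that was higher and 1 that was lower. Over all 38439 tested probe sets 0.0104% passed the adjusted threshold, and over all genes 7.76% passed the unadjusted one as higher and 4.58% as lower. The values of the groups did not overlap for 1 higher and 2 lower respiratory chain genes, where 9.12% of all genes were higher and 6.83% lower without overlap. The members' shares at the unadjusted threshold and without overlap were thus below those of all genes.

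The size of any change in array signal was bounded for nearly every member. Mean levels of members reached 15.09, where the highest value of the table was 15.95. Whether the signal still follows the amount of transcript at such levels was not tested. The 95% interval of the difference lay within 1.5-fold in either direction for 70 of the 71 genes above background, the exception being NDUFS5, and within 1.2-fold for 41, or 57.7%. These 71 genes are also those above the median level of all probe sets, and of all genes above it 83.3% had such an interval within 1.5-fold and 39.8% within 1.2-fold. The point estimate was under 1.1-fold for 68 of the 71, or 95.8%, against 64.2% of all genes above that level. Small differences were not particular to the chain. Over genes at any level, the estimate was under 1.1-fold for 62 of 67 mitochondrial and 66 of 66 cytosolic ribosomal protein genes. Their intervals lay within 1.5-fold for 97.0% and 100%. Arrays of one group varied no less for the members than for all genes, with a median within-group SD of 0.115 over the members and 0.092 over all genes. For 66 of 73 members this SD was larger than the difference between the groups.

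**Figure D1:**
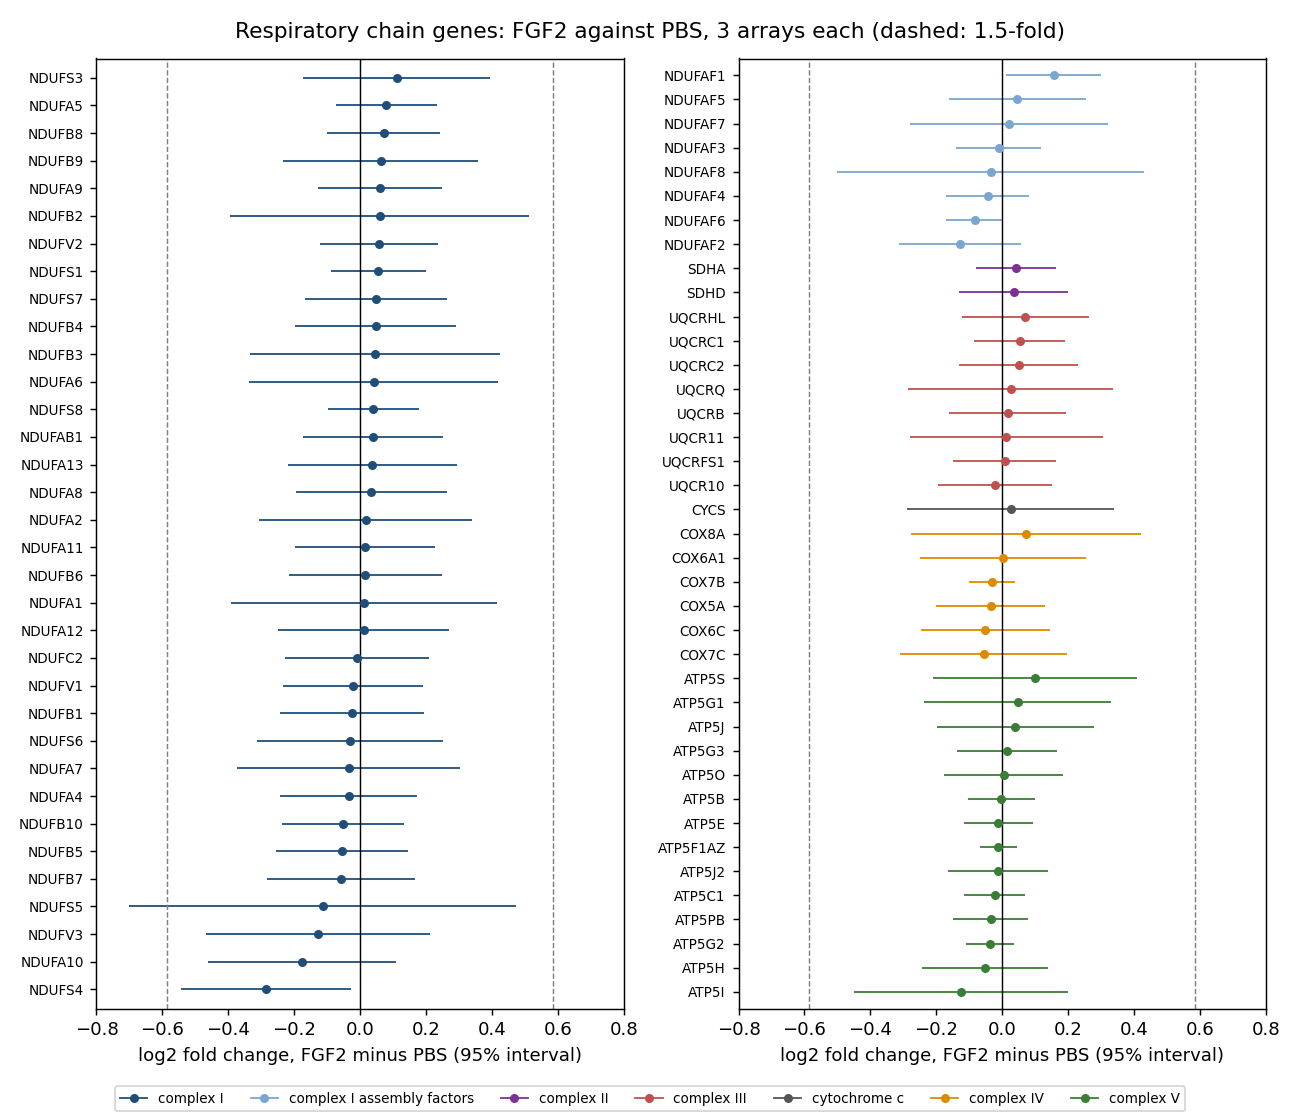
Log2 fold change of each of the 73 respiratory chain genes, FGF2 minus PBS, with its 95% interval from limma (3 arrays each), complex I on the left and the other complexes on the right, and dashed lines at 1.5-fold. Estimates run from -0.29 (NDUFS4) to 0.16 (NDUFAF1), and of the 73 intervals 1, that of NDUFS5, crosses a dashed line.

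**Figure D2:**
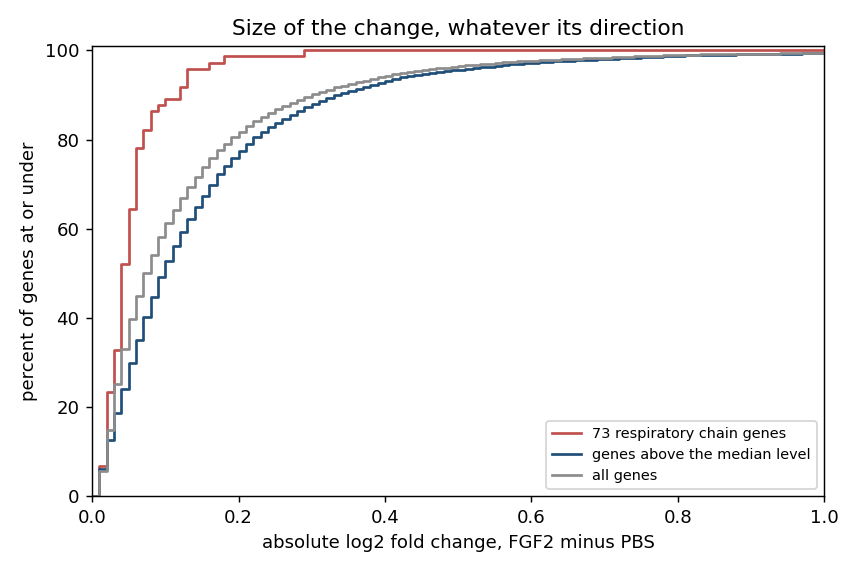
Percent of genes (y) whose absolute log2 fold change was at or under the value on the x axis, for the 73 respiratory chain genes, for genes above the median level of all probe sets and for all genes. At 0.1 the curves stand at 89.0%, 52.8% and 61.4%.

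Complex I, the NADH dehydrogenase, gave 34 genes, of which 21 were higher and 13 lower (median 0.02). Its largest differences were among the lower genes. NDUFS4, an accessory subunit at the NADH-oxidizing end that in mammals is needed for a stable complex, had 9.79, 9.56 and 9.90 in FGF2 arrays, against 10.14, 10.04 and 9.92 in PBS arrays. Every FGF2 value was below every PBS value, although the highest FGF2 value and the lowest PBS value were almost equal. The difference was -0.29 ± 0.102 (SE), or 1.22-fold lower, with an adjusted p of 0.536 in the limma fit, and this was the largest difference of any member. Of all genes 89.2% had a difference of that size or smaller. A further probe set of NDUFS4 was at background.

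NDUFA10, an accessory subunit of the membrane arm, had 12.35, 12.001 and 12.26 in FGF2 arrays, against 12.44, 12.48 and 12.24 in PBS arrays. The groups overlapped (-0.18 ± 0.113 SE; adjusted p = 0.643), and the second probe set of this gene gave 0.04. NDUFV3, a small subunit of the flavoprotein part, had 12.30, 11.92 and 12.23 in FGF2 arrays, against 12.08, 12.38 and 12.38 in PBS arrays, a difference of -0.13 ± 0.135 (SE). NDUFS5, an accessory subunit of the membrane arm that faces the intermembrane space, had 6.85, 6.502 and 6.21 in FGF2 arrays, against 6.36, 6.54 and 7.01 in PBS arrays. It was the least precise member, with a difference of -0.11 and a 95% interval of -0.70 to 0.47, and among the dimmer ones. For both NDUFV3 and NDUFA10 the lowest value was that of FGF2 replicate 2.

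Among the higher genes of complex I, NDUFS3, a core subunit of the arm that hands electrons to ubiquinone, had 9.40, 9.74 and 9.69 in FGF2 arrays, against 9.36, 9.60 and 9.54 in PBS arrays (0.11 ± 0.112 SE; adjusted p = 0.650). NDUFA5, an accessory subunit of the matrix arm, had 11.23, 11.15 and 11.26 in FGF2 arrays, against 11.03, 11.22 and 11.16 in PBS arrays (0.08 ± 0.061 SE). The membrane arm subunits NDUFB8 and NDUFB9 gave 0.07 ± 0.068 (SE) and 0.06 ± 0.117. In all 4 genes the lowest of the 6 values was that of PBS replicate 1, and the groups overlapped. The other 26 complex I genes gave differences of -0.06 to 0.06. They include NDUFA4 (-0.04), which in mammals is a subunit of complex IV and was placed here by its symbol.

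The 6 core subunits of complex I that the nucleus codes and that were measured, NDUFS1, NDUFS3, NDUFS7, NDUFS8, NDUFV1 and NDUFV2, carry the flavin and iron-sulfur centers or belong to the part that hands electrons to ubiquinone. Of these, 5 were higher and 1 lower, with a range of -0.02 (NDUFV1) to 0.11 (NDUFS3) and a median of 0.05. By array, the median of their values minus the mean of PBS was -0.14 in PBS replicate 1. It was 0.06 and 0.07 in the other PBS arrays and -0.002 to 0.08 in the FGF2 arrays. The count of higher genes thus leaned on PBS replicate 1. NDUFS1, the largest of them, was measured by 3 probe sets above background that gave 0.05 ± 0.057, 0.04 ± 0.261 and 0.05 ± 0.051 (SE).

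The 8 assembly factors of complex I, proteins that build the complex and are not part of it, divided into 3 higher and 5 lower. NDUFAF1, which in mammals helps assemble the membrane arm, had 12.88, 12.99 and 12.85 in FGF2 arrays, against 12.66, 12.79 and 12.80 in PBS arrays. Every FGF2 value was above every PBS value, and the difference was 0.16 ± 0.057 (SE), or 1.11-fold with a 95% interval of 1.01 to 1.23 (adjusted p = 0.539). It was the 1 member that was higher at an unadjusted p under 0.05, as NDUFS4 was the 1 that was lower.

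NDUFAF2, a late-acting assembly factor, had 9.20, 8.98 and 9.12 in FGF2 arrays, against 9.12, 9.29 and 9.26 in PBS arrays (-0.13 ± 0.074 SE; adjusted p = 0.643). NDUFAF6, named here after its values were seen, had 8.94, 8.85 and 8.93 in FGF2 arrays, against 8.96 to 9.02 in PBS arrays. Its groups did not overlap either, at a difference of only -0.08 ± 0.035 (SE; adjusted p = 0.573). The other 5 factors lay between -0.04 and 0.04.

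**Figure D3:**
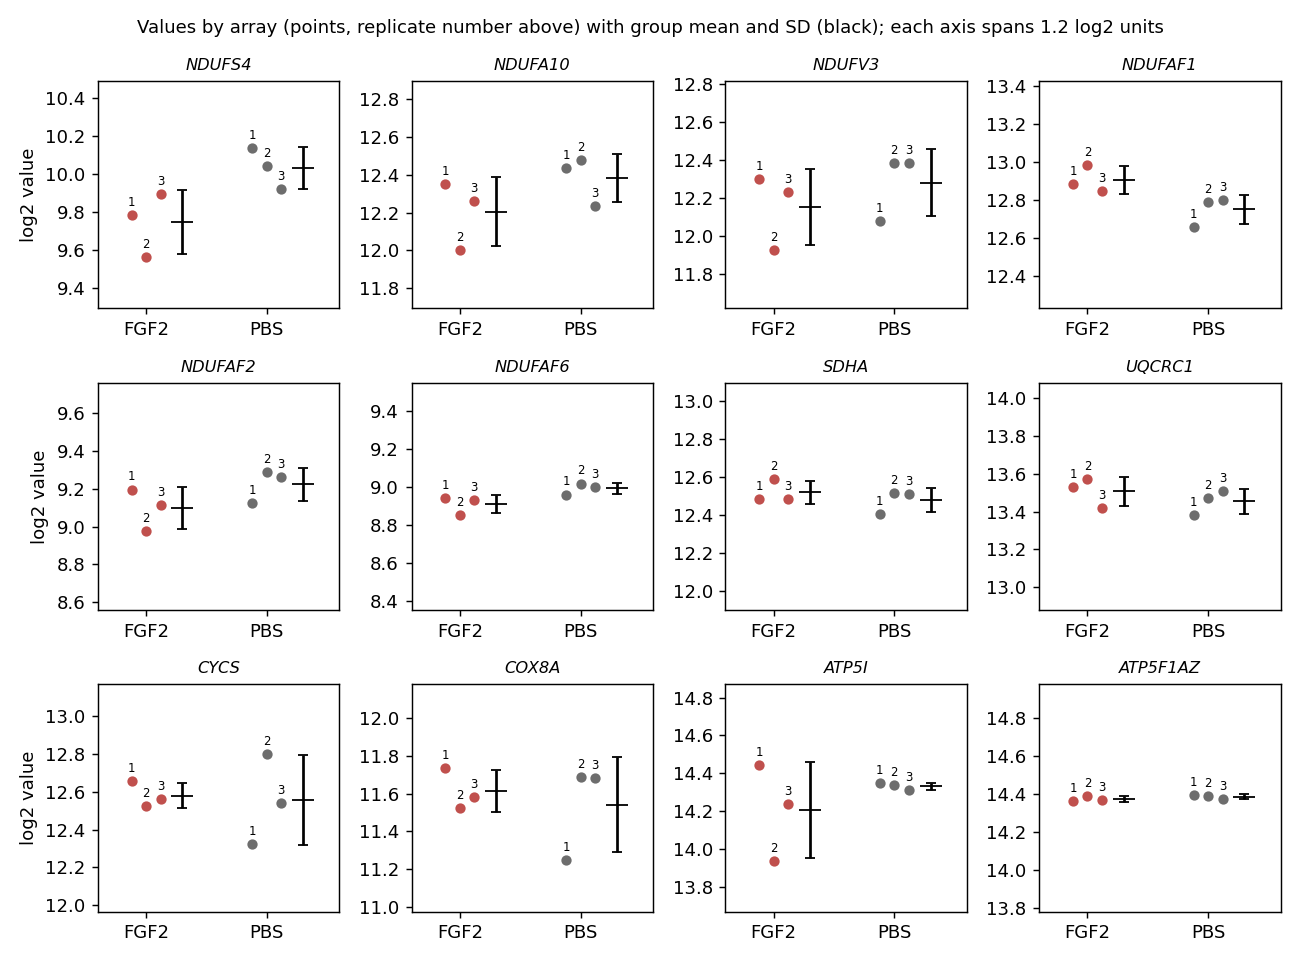
Log2 value of 12 respiratory chain genes in each array (points, with the replicate number above), FGF2 left and PBS right, with the group mean and SD in black, and each y axis spanning 1.2 log2 units. The groups do not overlap for NDUFS4, NDUFAF1 and NDUFAF6, and PBS replicate 1 lies lowest for CYCS and COX8A.

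Complex II, succinate dehydrogenase, is shared with the tricarboxylic acid cycle and was represented by 2 genes. SDHA, the flavoprotein that oxidizes succinate, had 12.49, 12.59 and 12.48 in FGF2 arrays, against 12.41, 12.52 and 12.51 in PBS arrays (0.04 ± 0.048 SE; adjusted p = 0.657). SDHD, a membrane anchor, had 13.26, 13.30 and 13.24 in FGF2 arrays, against 13.10, 13.33 and 13.27 in PBS arrays (0.03 ± 0.065 SE; adjusted p = 0.740). The groups overlapped for both, and the 95% intervals excluded a change of 1.2-fold.

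Complex III, the cytochrome bc1 complex, had 7 genes higher and 1 lower, within -0.02 to 0.07 and with a median of 0.02. UQCRHL, the hinge protein also known as UQCRH, had 13.91, 13.91 and 13.95 in FGF2 arrays, against 13.69, 13.92 and 13.96 in PBS arrays (0.07 ± 0.076 SE; adjusted p = 0.654). The core protein UQCRC1 had 13.53, 13.57 and 13.42 in FGF2 arrays, against 13.38, 13.47 and 13.51 in PBS arrays (0.05 ± 0.055 SE). The small subunit UQCR10, the 1 gene that was lower, had 13.56, 13.37 and 13.53 in FGF2 arrays, against 13.41, 13.55 and 13.56 in PBS arrays (-0.02 ± 0.069 SE). The count of 7 of 8 rested on PBS replicate 1, which was the lowest PBS array for this complex. Without it the median was -0.05, and the cause of its low values was not tested.

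CYCS, the gene of cytochrome c, which also sets off the caspase cascade when it leaves the mitochondrion, had 12.65, 12.52 and 12.56 in FGF2 arrays, against 12.32, 12.80 and 12.54 in PBS arrays. The PBS values spanned the FGF2 values on both sides, and the difference was 0.03 ± 0.125 (SE; adjusted p = 0.897). A second probe set gave 0.06.

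Complex IV, cytochrome c oxidase, was represented by 6 small nuclear-encoded subunits that surround the catalytic core, 2 of them higher and 4 lower (median -0.03), with COX7B at background. COX8A had 11.73, 11.52 and 11.58 in FGF2 arrays, against 11.25, 11.69 and 11.68 in PBS arrays (0.07 ± 0.139 SE; adjusted p = 0.745). COX6A1 had 14.11, 13.92 and 14.01 in FGF2 arrays, against 13.81, 14.12 and 14.10 in PBS arrays, with the same mean of 14.01 in both groups. COX7C and COX6C gave -0.06 ± 0.101 and -0.05 ± 0.078 (SE), with FGF2 replicate 2 the lowest FGF2 array in both. A further, dimmer probe set of COX6C gave 0.30 (adjusted p = 0.649), the largest value of any further probe set of a member.

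Complex V, the ATP synthase, had 5 genes higher and 9 lower, within -0.13 to 0.10 and with a median of -0.01. The 9 include ATP5G2, which was at background. The 4 measured subunits of its catalytic F1 head varied little, with a median within-group SD of 0.046, and lay between -0.02 and -0.0035. ATP5F1AZ, the alpha subunit coded on the Z chromosome, had 14.36, 14.39 and 14.37 in FGF2 arrays, against 14.40, 14.39 and 14.37 in PBS arrays, and its 95% interval of -0.07 to 0.04 was the narrowest of all 73. A close copy of this gene lies on the W chromosome of birds, and whether the probe set also detects it was not tested. ATP5B, the catalytic beta subunit, had 14.15, 14.22 and 14.13 in FGF2 arrays, against 14.11, 14.21 and 14.19 in PBS arrays.

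In the membrane part and stalk of the synthase, ATP5I (subunit e, which joins synthase pairs) had 14.44, 13.94 and 14.24 in FGF2 arrays, against 14.35, 14.34 and 14.31 in PBS arrays. Its FGF2 values lay far apart and its PBS values close together (SD 0.254 in FGF2 and 0.018 in PBS arrays, n = 3 each; difference -0.13 ± 0.129 SE, adjusted p = 0.650). Without FGF2 replicate 2 the difference was 0.01. ATP5H, subunit d of the peripheral stalk, gave -0.05 ± 0.076 (SE), and ATP5G1, a gene of the proton-carrying c ring, 0.05 ± 0.113. ATP5S, a coupling factor that is no stable subunit, had 10.47, 10.17 and 10.29 in FGF2 arrays, against 10.003, 10.38 and 10.24 in PBS arrays (0.10 ± 0.123 SE; adjusted p = 0.663). By the representative probe sets the groups overlapped for all 14 genes of this complex. The 5 probe sets of ATP5J2 did not give 1 value. A further, dimmer one was higher without overlap (0.26 ± 0.117 SE; adjusted p = 0.603 in the limma fit). The representative gave -0.01, and the others lay between -0.10 and 0.12.

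The members varied together from array to array more than between the groups. The level of the chain in an array was taken as the median over the 73 genes of each value minus the mean of PBS. It stood at 0.05, -0.06 and 0.01 in the FGF2 arrays and at -0.15, 0.09 and 0.05 in the PBS arrays. PBS replicate 1 held the lowest of the 6 values for 49 of 73 genes, and was the lowest PBS array for 64, or 87.7%, where it was the lowest for 39.9% of all genes. FGF2 replicate 2 was the lowest FGF2 array for 49 members, or 67.1%, against 41.7% of all genes. Over all genes the same quantity lay between -0.02 and 0.004 in the FGF2 arrays and between -0.01 and 0.02 in the PBS arrays. The normalization makes the distributions of the arrays equal and so tends to keep this quantity small. It thus cannot show how unusual the chain's levels are, and the shares over all genes were not matched for level.

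PBS replicate 1 was the lowest PBS array for each of complexes I to V, at -0.17, -0.10, -0.12, -0.16 and -0.07. FGF2 replicate 2 was not alike across the chain. For the 46 accessory and small subunits above background, the levels were 0.08, -0.10 and 0.02 in the FGF2 arrays and -0.17, 0.10 and 0.06 in the PBS arrays. For the 14 core and large subunits (those of complex I above, SDHA, UQCRC1, UQCRC2, UQCRFS1 and the F1 head) they were 0.02, 0.04 and -0.01 in the FGF2 arrays and -0.09, 0.04 and 0.05 in the PBS arrays. FGF2 replicate 2 was thus the lowest FGF2 array for the first set and the highest for the second. Within the second set it was highest only for SDHA and the 3 large subunits of complex III (0.04, 0.12 and -0.03 in the FGF2 arrays). In the complex I core FGF2 replicate 1 was highest (0.08, 0.05 and -0.002). In the F1 head FGF2 replicate 2 was the lowest FGF2 array (-0.02, -0.04 and 0.002).

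**Figure D4:**
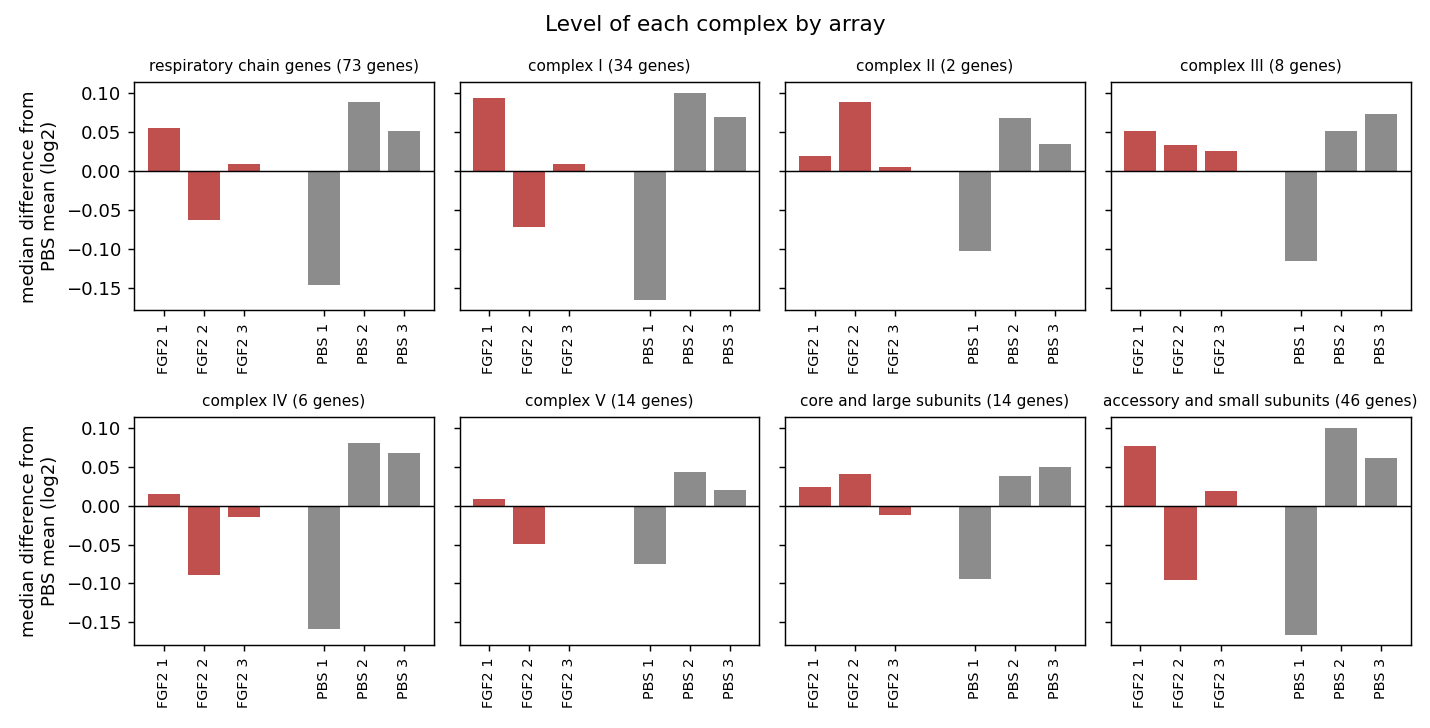
Level of a set of genes, the median of each value minus the mean of PBS (y, log2 units), in each array, FGF2 arrays in red on the left and PBS arrays in gray on the right, for the whole chain, complexes I to V and 2 sets of subunits. PBS replicate 1 is the lowest bar of every panel, and FGF2 replicate 2 is below 0 for the accessory and small subunits and above 0 for the core and large ones.

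The balance of higher and lower members followed single arrays. Without PBS replicate 1 the members divided into 10 higher and 63 lower (median -0.07), and without PBS replicate 2 into 52 higher and 21 lower (median 0.06). The median of every complex, of the complex I assembly factors and of CYCS changed sign with some array left out. Without PBS replicate 1 those of complexes I, II and III and of CYCS were -0.09, -0.01, -0.05 and -0.09. Without FGF2 replicate 2 those of complexes IV and V were 0.0047 and 0.01, and without PBS replicate 3 that of the assembly factors was 0.02. No member passed an adjusted p of 0.05 with any array left out. The sign of the chain's median thus depended on which array was left out.

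A second measurement was available for 36 genes, which had 60 further probe sets. Of these 32 were above background, with a median difference of 0.02 and a range of -0.17 to 0.30, and none had an unadjusted p under 0.05. Their sign was that of the representative probe set in 16 and the opposite in 16. Of the 28 further probe sets at background 25 were lower. The median of all 28 was -0.02, which is the median of all tested probe sets too.

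Assembly factors of complexes II to V and tricarboxylic acid cycle genes differed more between the groups than the members did. The difference was under 1.1-fold for 24 of 30 and 11 of 14 of them, against 70 of the 73 members and 71.1% of all genes. The 14 include DLAT, which was at background. For genes of the chain outside the symbol rule the difference was under 1.1-fold in all 5 measured. Of these, USMG5 was at background, so its difference says nothing about the transcript. The interval of C14orf2 (-0.60 to 0.51) was too wide to show that its change was small. COX4I1 and ATPIF1, a complex IV subunit and the inhibitor of the synthase, gave -0.01 and 0.03, and COX7A2L, which joins complexes into supercomplexes, -0.07. Of 30 assembly factors of complexes II to V 14 were higher and 16 lower (median -0.01), between -0.33 for LYRM7 and 0.17 for COX15, which makes the heme of complex IV. Another 5 assembly factors of complex I had a median of -0.09, from -0.21 for NUBPL, which delivers iron-sulfur clusters, to 0.05 for FOXRED1. Genes of the tricarboxylic acid cycle and pyruvate dehydrogenase had 7 of 14 higher and a median of -0.01, between -0.15 for PDHX and 0.21 for SUCLG1, and the groups did not overlap for IDH3A (-0.14; adjusted p = 0.467). None of these passed an adjusted p of 0.05.

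Of 21 measured regulators of mitochondrial biogenesis, mainly genes that act on the chain's own genes or on mitochondrial DNA, 15 were higher and 6 lower (median 0.07). An unadjusted p under 0.05 was reached by 5 of the 21, all higher. At that threshold 7.76% of all genes were higher, and 978 of the 9273 genes above the median level of all probe sets. None of the 21 passed after adjustment (limma, adjusted p = 0.461 to 0.996). PPARD, a lipid-sensing nuclear receptor, had 9.47, 9.46 and 9.37 in FGF2 arrays, against 8.90, 9.28 and 9.17 in PBS arrays (0.31 ± 0.104 SE; adjusted p = 0.505). The others of these 5, named after their values were seen, were NRF1, a direct activator of many respiratory chain promoters in mammals (0.19), GABPB1, a subunit of another such activator (0.13), and TFB2M (0.22) and MTERF3 (0.22), which act on mitochondrial DNA. The list was not split by whether a gene promotes or restrains the chain. NRF1 had 6.87, 6.996 and 6.77 in FGF2 arrays, against 6.62, 6.75 and 6.69 in PBS arrays, without overlap. PBS replicate 1 was the lowest PBS array for all of the 5 but TFB2M, for which PBS replicate 3 was. The lowest value of the list was -0.15, for the nuclear receptor ESRRG, while TFAM, which packages and transcribes mitochondrial DNA, gave 0.04 and the coactivator PPARGC1A 0.27 (adjusted p = 0.644).

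Genes of the hypoxia response and of glycolysis had 16 of 25 higher and a median of 0.04 (EGLN1 counted under 2 gene IDs). Their values lay between -0.29 for VEGFA and 0.57 for PDK4, a kinase that inhibits pyruvate dehydrogenase, and none passed after adjustment. Proteins of the mitochondrial ribosome, which makes the subunits coded by mitochondrial DNA, had 49 of 67 higher and 18 lower with a median of 0.04, and PBS replicate 1 was their lowest array too, at -0.10. Proteins of the cytosolic ribosome had 27 of 66 higher and a median of -0.002, with array levels of -0.01 to 0.02 in FGF2 and -0.04 to 0.02 in PBS tissue.

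Markers of limb mesenchyme, skeletal muscle, cartilage, macrophages and nerve had larger differences than the chain. None of those given here passed an adjusted p of 0.05. Of the 8 limb mesenchyme markers 5 were higher and 3 lower, between -0.42 and 2.12 (median 0.05), with a lowest adjusted p of 0.068 in the limma fit. Of 21 skeletal muscle markers 19 were lower around FGF2 beads and 2 higher, between -0.77 for TTN and 0.17 for NEB (median -0.46), with a summed level of 57800 to 84400 in FGF2 and 77100 to 93800 in PBS arrays (linear units). Of 12 cartilage markers 10 were lower (-1.15 for EPYC to 0.23 for SOX9; median -0.44; summed level 35300 to 52100 in FGF2 and 37700 to 70900 in PBS arrays), and all 11 macrophage markers were higher (0.08 for CYBB to 3.23 for C1QA; median 0.60; 3570 to 4280 in FGF2 and 2200 to 2400 in PBS arrays), of which PTPRC, MARCO and CYBB were at background. In bulk tissue fewer cells of a type and less RNA per cell cannot be told apart, and the part of these cells in the respiratory chain values was not tested. Of the 6 nerve and Schwann cell markers, with NEFL at background, 4 were higher and 2 lower (median 0.07). They lay between -0.78 for SOX10 and 2.44 for STMN2 (adjusted p = 0.147 in the limma fit). Their summed levels of 2250 to 3160 in FGF2 and 1470 to 1840 in PBS arrays did not overlap. Their medians by array did, at 0.003 to 0.18 in FGF2 and -0.13 to 0.14 in PBS arrays. Erythroid, endothelial and ectodermal markers had medians of 0.003, -0.04 and 0.03, and the highest endothelial value was 0.55 for KDR. By array, the muscle markers stood at -0.57, -0.81 and -0.03 in FGF2 and at 0.18, -0.24 and 0.07 in PBS arrays. FGF2 replicate 2 was thus the lowest FGF2 array for muscle as for the small subunits of the chain. It was so too for cartilage (-0.66) and endothelial markers (-0.02), but not for the other lists. PBS replicate 1, the lowest of the 6 arrays for the chain, was the highest of them for muscle, cartilage (0.46) and endothelial markers (0.09). It was the lowest for erythroid (-0.16), nerve (-0.13), macrophage (-0.05) and ectodermal markers (-0.03), and neither for limb mesenchyme.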

How the data were processed

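RNA of FGF2- and PBS-treated tissue was labelled with biotin and measured on Affymetrix Chicken Genome GeneChips. The authors deposited log2 values from RMA (credited to the submitters' processing notes), a method that subtracts background, makes the distributions of the arrays equal and combines the probes of a set. The log base was read from the range of the values, and no source used here gives the version. Equal distributions remove any shift common to all genes. No further normalization was applied. Of 38535 probe sets 96 controls were left out and 38439 tested; 27168 had 1 symbol, 177 several and 11094 none. Each gene was represented by its brightest probe set. Of the members 72 were found in the RefSeq gene table, which updated 0 symbols.

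The 2 groups were compared by a two-sided test in limma 3.58.1 (lmFit, eBayes; R 4.3.3). P-values were adjusted by the method of Benjamini and Hochberg across the 38439 probe sets, with a threshold of 0.05, and intervals are at 95%. A permutation test of 3 against 3 arrays cannot go below 0.1. The number of arrays limits the precision. Complexes are described by counts and medians, with no test. Members and lists were chosen with earlier results of these data known. Named genes are the 4 largest rises and falls of complex I, the 2 largest of complexes III, IV and V, the SDH genes, CYCS, and the extremes of the assembly factors. Of most lists the extremes are named too. Other genes in the text fall outside these rules, among them NDUFA4, NDUFS1, ATP5F1AZ, ATP5B, ATP5J2, COX4I1, IDH3A, TFAM and PPARGC1A. The fit was checked on simulated data. Alternatives tried were the omission of each array, the replicate number as a block, 3 other normalizations, brighter probe sets only, a variance trend, no probe sets that can match several transcripts, gene means, other thresholds and no assembly factors. Omitting both PBS replicate 1 and FGF2 replicate 2, and omitting members at background, were chosen after seeing the data.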

Additional observations from a re-analysis of the deposited data

How the results depend on the processing

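In no alternative did a respiratory chain gene pass an adjusted p of 0.05 (lowest adjusted p = 0.323, without the dim probe sets), and the 2 with an unadjusted p under 0.05 became 0 without FGF2 replicate 1, FGF2 replicate 2 or PBS replicate 2, 4 without PBS replicate 1, and 1 to 3 in the other alternatives. The count over all probe sets was 4. It became 1 with the replicate block and at an adjusted p under 0.01, 7 after quantile normalization again or with gene means, 40 without the dim probe sets, 39 with the variance trend, 3433 at an unadjusted p, and 0 to 3 as each array was omitted. Same-numbered arrays deviated from their group means with correlations of -0.25, -0.002 and -0.18, and were not treated as pairs. Between differently numbered arrays the correlations ran from -0.19 to 0.33. The labels do not say that a number marks a day, so these values cannot show which arrays share one. A day effect was thus not modeled in the main fit. Each replicate number occurs once in each group, so the replicate block cannot change any difference. The chain's median of 0.01 under the block is thus no check on a day effect. As each array was omitted that median lay between -0.07 and 0.06. Without PBS replicate 1 and FGF2 replicate 2 together the median of complex II was -0.0395. Signs turned for COX6A1 with median centring (-0.0058) and cyclic loess (-0.00753), for NDUFB8 without the probe sets that can match several transcripts (-0.118) and with gene means (-0.0237), for SDHD without those probe sets (-0.0128, a probe set at background) and for COX6C with gene means (0.12). As each array was omitted, signs also turned for genes whose difference was small against its error, with values of -0.0578 to 0.135 for NDUFB9, -0.278 to 0.0723 for NDUFS5, -0.0329 to 0.0831 for SDHD, -0.0129 to 0.122 for UQCRHL, -0.0714 to 0.0354 for UQCR10, -0.0891 to 0.147 for CYCS, -0.0742 to 0.145 for COX8A, -0.0976 to 0.0568 for COX6A1, -0.141 to 0.0189 for COX7C, -0.00317 to 0.184 for ATP5S, -0.0766 to 0.128 for ATP5G1, -0.12 to 0.00201 for ATP5H and -0.244 to 0.00853 for ATP5I. The cause was not tested.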
